A study of Mus musculus with 6 samples.

Results

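The genes described here are 36 genes of sterol and fatty acid synthesis, their regulators, and the carriers that move cholesterol within and out of cells. They were taken by name, as rows of the deposited table whose gene symbol is on a fixed list. That list was drawn up with earlier results of these data known. All 36 were found among the 55401 genes of the table. All 36 also passed the filter on low counts. The RNA came from male mouse cells, in 6 libraries of polyadenylated RNA. The iNSC group (3 libraries) holds cells that the submitters name as neural stem cell-like, after 6 days of transdifferentiation. They were made from cultured spermatogonial stem cells on laminin, with retinoic acid at 1 µM for 24 h, then a medium with N2, B27, albumin, bFGF at 20 ng/mL, 1% serum and the TGF-beta receptor inhibitor SB431542 at 10 µM. The SSC group (3 libraries) holds spermatogonial stem cells from the testis of 6-day-old mice. They grew on feeders of the mouse STO line in 10% serum, with EGF and GDNF (each at 20 ng/mL) and LIF and bFGF (each at 10 ng/mL). Both media held insulin at 25 µg/mL. The labels name no genotype, strain or perturbed gene, and do not say whether replicates are separate cultures or animals. The p-values therefore measure the spread between these libraries, which may be technical. Cell state, medium, serum and feeders differ together between the groups and cannot be told apart.

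Cells make cholesterol from acetyl-CoA through mevalonate, the isoprenoid farnesyl pyrophosphate, squalene and lanosterol. The transcription factors SREBP-1 and SREBP-2 (genes Srebf1 and Srebf2) turn this route on. When membrane sterol is low, the escort protein SCAP carries them to the Golgi for cleavage, and when sterol is high, INSIG proteins hold SCAP in the endoplasmic reticulum. SREBP-1 mainly drives fatty acid genes and SREBP-2 mainly sterol genes. The liver X receptors (LXRs) sense oxysterols and induce the cholesterol exporters Abca1 and Abcg1. In the testis, germ cells express sterol synthesis enzymes such as Cyp51, and Leydig cells turn cholesterol into steroids.

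Total counts were 18761528 to 20156067 in iNSCs and 18058551 to 19370976 in SSCs. In all 6 samples the cell type label contradicts the title, and the titles were followed. The germ cell markers Ddx4, Dazl, Zbtb16, Gfra1, Mael and Tdrd1 all had lower levels in the libraries titled iNSCs, and their summed FPKM was 11.3 to 15.2 in iNSCs against 651 to 718 in SSCs. FPKM is the read count scaled to exon length and to library size. Of the 6 neural stem cell markers, 2 (Nes and Prom1) rose and 3 (Sox2, Pax6 and Nr2e1) fell in iNSCs, and Nr2e1 had 0 counts there. Pax6 was at 0.12 FPKM or less in every library. Sox2 was at 0.05 FPKM or less in iNSCs and at 9.16 to 13.22 FPKM in SSCs. These markers thus went either way, and iNSC is used here only as the submitters' group name. The SSC libraries were less alike than the iNSC libraries. The sum of 8 fibroblast markers was 418, 360 and 51.9 FPKM in SSCs replicates 1, 2 and 3. In replicate 3, 5 of these 8 markers (Col1a1, Col1a2, Col3a1, Postn and Thy1) had their lowest SSC level and the other 3 their highest. Of the 6 germ cell markers, Dazl, Zbtb16 and Gfra1 were highest in replicate 3 among the SSC libraries, and Ddx4, Mael and Tdrd1 were lowest. In such bulk RNA, fewer cells of a type and less RNA per cell cannot be told apart.

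The members did not move as a block. Of the 36, 10 rose and 4 fell in iNSCs, where rose and fell mean an adjusted p under 0.05 in edgeR's quasi-likelihood test and a log2 difference of at least 1 in size, on TMM-scaled counts. Over all 17387 tested genes, 25.7% were called higher and 27.6% lower by the same rule. The median log2 difference of the members was 0.08, against -0.05 over all tested genes. The share of members that rose was close to the background, and the share that fell was below it. FPKM of the groups did not overlap in 28 members, and in 79.3% of all tested genes. With no size threshold, 13 members were higher and 9 lower, against 35.6% and 38.3% of all tested genes. These shares of all tested genes are also the background for the counts of single lists, and for the non-overlap of single genes, given below. The sum of the 18 sterol synthesis enzymes was 431, 442 and 459 FPKM in iNSCs replicates 1, 2 and 3, against 361, 376 and 632 FPKM in SSCs replicates 1, 2 and 3. The iNSC sums lay inside the range of the SSC sums. Below that sum, single steps of the pathway moved in opposite directions.

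**Figure D1:**
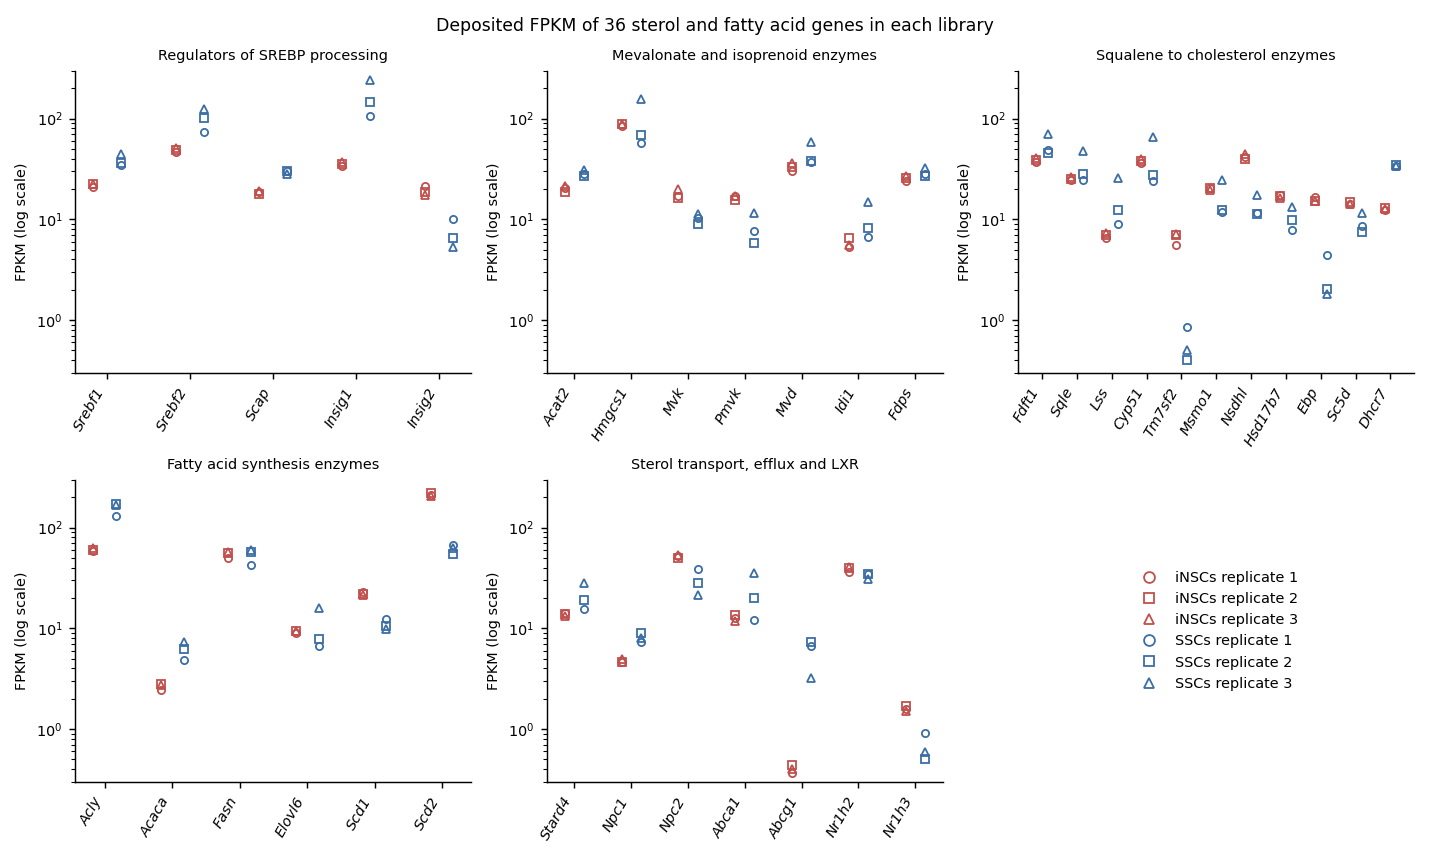
Deposited FPKM of each member in each library, on a log axis, in 5 panels by role. iNSC libraries (red) stand left of SSC libraries (blue), and marker shapes give the replicate. The iNSC points lie close together, while SSCs replicate 3 stands above the other SSC libraries for many synthesis enzymes, as for Hmgcs1 at 158 FPKM.

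**Figure D2:**
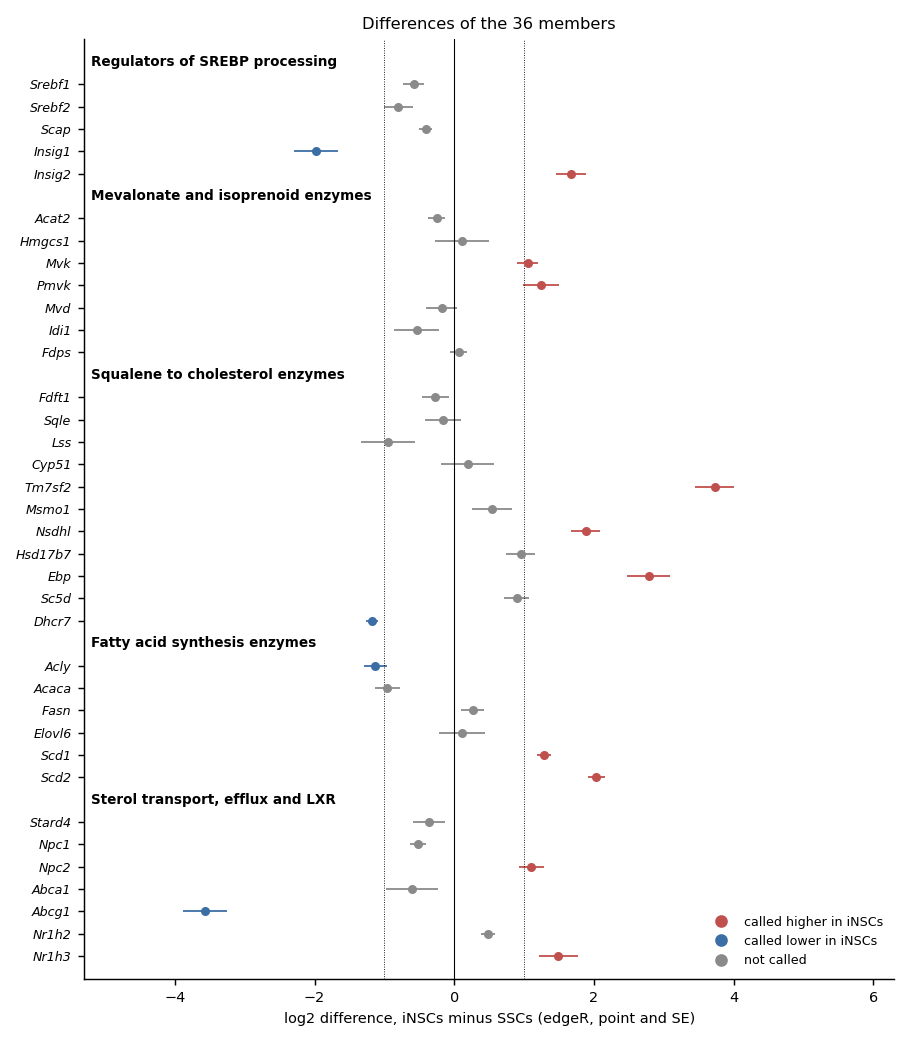
Log2 difference (iNSCs minus SSCs) of the 36 members with its SE from edgeR, grouped by role. Colours mark the 10 members called higher and the 4 called lower in iNSCs, and dotted lines the size threshold of 1. Tm7sf2 and Ebp lie farthest to the right and Abcg1 farthest to the left.

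Among the regulators, the 2 INSIG genes moved in opposite directions. Insig1, itself a target of SREBP whose product holds SCAP back, had 34.28, 35.12 and 37.34 FPKM in iNSCs and 107.40, 144.95 and 243.04 FPKM in SSCs (log2 -1.98, SE 0.31, edgeR adjusted p = 8.13e-04). Every iNSC library was below every SSC library. Insig2, whose product has the same role but which is not a classical SREBP target, had 21.64, 18.65 and 17.54 FPKM in iNSCs and 10.00, 6.57 and 5.28 FPKM in SSCs (log2 1.67, SE 0.21, edgeR adjusted p = 2.98e-04). Here every iNSC library was above every SSC library. Within a library, where scaling plays no part, Insig1 exceeded Insig2 by 1.58 to 2.13 times in iNSCs and by 10.7 to 45.9 times in SSCs. Insig1 made up 61.3 to 68.0% of the summed FPKM of the pair in iNSCs and 91.5 to 97.9% in SSCs. The mean log2 ratio of Insig1 to Insig2 was 0.89 ± 0.21 in iNSCs and 4.47 ± 1.05 in SSCs (SD, n = 3 each, exact permutation test, two-sided p = 0.1). With 3 libraries a group, 0.1 is the smallest p this test can give.

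Srebf2 and Srebf1 were lower in iNSCs, but under the size threshold. Srebf2 had 46.27, 48.72 and 51.42 FPKM in iNSCs and 74.35, 100.56 and 126.09 FPKM in SSCs (log2 -0.80, SE 0.21, edgeR adjusted p = 0.011). Its log2 difference was -1.04 with library totals in place of TMM, past the size threshold, and its adjusted p was 0.0511 without iNSCs replicate 1. Srebf1 had 20.79, 22.24 and 22.23 FPKM in iNSCs and 34.40, 36.09 and 44.97 FPKM in SSCs (log2 -0.58, SE 0.15, edgeR adjusted p = 0.00839). Scap followed with a log2 difference of -0.41 (SE 0.09), and its groups did not overlap either. The ratio of Srebf1 to Srebf2 was 0.432 to 0.457 in iNSCs and 0.357 to 0.463 in SSCs, so the groups overlapped (exact permutation p = 0.4). Of the 5 regulators, 1 rose, 1 fell and 3 were lower at the adjusted p alone (median log2 -0.58). Over all tested genes, 25.7% rose and 27.6% fell.

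The upstream sequences of both INSIG genes are shown because these genes moved apart. They are the 250 bases before the annotated start in RefSeq (GRCm38.p6), 5′ to 3′, and for Insig2, which has 3 RefSeq starts, before the outermost of them. Capitals mark matches on either strand to the NF-Y box CCAAT, the GC box GGGCGG, the E-box CACGTG or the sterol regulatory element TCACNCCAC, where N is any base.
Insig1 (chr5:28071162-28071411, plus strand): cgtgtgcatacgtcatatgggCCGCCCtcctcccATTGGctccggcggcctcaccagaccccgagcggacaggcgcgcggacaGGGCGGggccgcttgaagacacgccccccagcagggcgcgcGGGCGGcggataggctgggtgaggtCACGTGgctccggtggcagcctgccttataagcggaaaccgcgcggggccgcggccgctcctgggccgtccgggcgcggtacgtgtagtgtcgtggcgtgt
Insig2 (chr1:121332590-121332839, minus strand): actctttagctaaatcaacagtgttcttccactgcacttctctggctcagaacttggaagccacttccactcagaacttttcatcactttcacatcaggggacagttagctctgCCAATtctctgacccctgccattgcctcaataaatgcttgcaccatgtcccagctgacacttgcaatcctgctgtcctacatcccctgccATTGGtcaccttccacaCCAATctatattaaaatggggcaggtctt
The Insig1 sequence holds the E-box 101 bases before the start, 3 GC boxes and 1 NF-Y box. The Insig2 sequence holds 3 NF-Y boxes and no GC box or E-box. The sequences before the other 2 Insig2 starts, not shown, each hold 1 GC box and no NF-Y box. Which start was used in these cells was not measured. None of these Insig1 and Insig2 sequences holds the sterol regulatory element as spelled here.

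In the mevalonate arm, the 2 kinases rose and no enzyme fell. Mvk, which phosphorylates mevalonate, had 17, 16.44 and 19.85 FPKM in iNSCs and 10.29, 8.94 and 11.38 FPKM in SSCs (log2 1.05, SE 0.15, edgeR adjusted p = 5.14e-04). The next kinase, Pmvk, had 17.14, 15.63 and 17.17 FPKM in iNSCs and 7.59, 5.88 and 11.63 FPKM in SSCs (log2 1.24, SE 0.26, edgeR adjusted p = 0.00375). The groups of both genes stood apart, yet both sit near the size threshold: with library totals the log2 difference was 0.80 for Mvk and 0.99 for Pmvk, and with limma on log2(FPKM + 1) it was 0.75 and 0.96. For Mvk it was also 0.96 without SSCs replicate 2 and 0.99 without iNSCs replicate 3. Mvd, the decarboxylase that follows, did not share this pattern, with 30.22, 33.06 and 36.67 FPKM in iNSCs and 36.99, 38.43 and 58.91 FPKM in SSCs (log2 -0.18, SE 0.22).

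Hmgcs1, the cytosolic HMG-CoA synthase, was level among iNSCs and uneven among SSCs. Hmgcs1 had 83.98, 89.37 and 87.55 FPKM in iNSCs and 56.88, 69.37 and 157.55 FPKM in SSCs (log2 0.11, SE 0.38, edgeR adjusted p = 0.806). The iNSC values lay between SSCs replicates 1 and 2 on one side and SSCs replicate 3 on the other. Without SSCs replicate 3 the log2 difference was 0.73 (edgeR adjusted p = 6.6e-04), and without SSCs replicate 1 it was -0.17. Its direction between the groups thus rested on which SSC library was left out, and it also turned to -0.12 with library totals.

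Its upstream sequence was the only one of the 37 sequences available for members to match the sterol regulatory element, 137 bases before the start.
Hmgcs1 (chr13:119690101-119690350, plus strand): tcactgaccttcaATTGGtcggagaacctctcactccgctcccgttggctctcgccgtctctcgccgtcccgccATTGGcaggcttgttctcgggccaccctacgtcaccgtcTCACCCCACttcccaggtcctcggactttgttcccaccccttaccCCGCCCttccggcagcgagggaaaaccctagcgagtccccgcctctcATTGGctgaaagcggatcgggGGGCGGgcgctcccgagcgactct
That sequence also holds 3 NF-Y boxes, in the reverse orientation, and 2 GC boxes. The sterol regulatory element as spelled here occurs in 1.05% of the 32851 upstream sequences of the same length in the RefSeq table. NF-Y boxes were found in 56.8% of the member sequences and 33.8% of all, and GC boxes in 67.6% and 32.7%. The E-box was found in 16.2% of the member sequences and 6.02% of all. These matches describe letters only, and no binding was measured.

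Idi1 (isopentenyl diphosphate isomerase), Fdps (farnesyl diphosphate synthase) and Acat2 (cytosolic acetoacetyl-CoA thiolase) were not called. Idi1 had 5.28, 6.55 and 5.55 FPKM in iNSCs and 6.69, 8.26 and 14.88 FPKM in SSCs (log2 -0.54, SE 0.32), with SSCs replicate 3 again highest. Fdps had 23.99 to 27.27 FPKM in iNSCs and 27.27 to 32.17 FPKM in SSCs (log2 0.06, SE 0.12). The sign of its TMM-scaled difference is opposite to that of its FPKM means, and its log2 difference was -0.19 with library totals. Acat2 had 18.82 to 21.63 FPKM in iNSCs and 26.77 to 31.16 FPKM in SSCs (log2 -0.25, SE 0.12). Shared sequence may affect some of these counts. Of the 50-base words in Acat2 transcripts, 39.1% also occur in transcripts of other genes, as do 26.2% of those of Fdps and 25.3% of those of Idi1. For Fdps, 23.4% of its words lie in Gm43738, which overlaps it on the same strand and had 0 FPKM in all 6 libraries. For Acat2 the shared words all lie in its paralogue Acat3, at 0.20 to 0.40 FPKM in iNSCs and 0.32 to 0.34 FPKM in SSCs.

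Of the 11 enzymes from squalene to cholesterol, 3 rose (Tm7sf2, Ebp and Nsdhl) and 1 fell (Dhcr7), where 25.7% and 27.6% of all tested genes did. Another 2 were higher at the adjusted p alone and 5 were not called (median log2 of the 11, 0.54). Tm7sf2, a sterol C14 reductase that acts on lanosterol-derived intermediates, had 5.58, 6.92 and 7.12 FPKM in iNSCs and 0.86, 0.40 and 0.51 FPKM in SSCs (log2 3.73, SE 0.28, edgeR adjusted p = 2.47e-05). That is a 13.3-fold difference, the largest rise among the members. Ebp, the sterol isomerase that moves the ring double bond, had 16.64, 15.10 and 15.38 FPKM in iNSCs and 4.38, 2.04 and 1.80 FPKM in SSCs (log2 2.78, SE 0.31, edgeR adjusted p = 1.59e-04). Nsdhl, a dehydrogenase of the C4 demethylation complex, had 41.53, 39.69 and 44.10 FPKM in iNSCs and 11.49, 11.28 and 17.60 FPKM in SSCs (log2 1.88, SE 0.21, edgeR adjusted p = 1.54e-04). None of these 3 genes had overlapping groups. The 3 kept their calls in every alternative tried.

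Hsd17b7 and Sc5d were also higher, below the size threshold, and Msmo1 was not called. Hsd17b7, the keto reductase of that complex, had 17.40, 17.12 and 16.38 FPKM in iNSCs and 7.90, 9.87 and 13.29 FPKM in SSCs (log2 0.95, SE 0.21, edgeR adjusted p = 0.00419). Sc5d, the C5 desaturase, had 14.35, 14.73 and 14.19 FPKM in iNSCs and 8.51, 7.48 and 11.62 FPKM in SSCs (log2 0.89, SE 0.18, edgeR adjusted p = 0.00321). Without SSCs replicate 3 both passed the size threshold, at 1.20 and 1.12. Msmo1, the C4 methyl oxidase, had 20.46, 20.50 and 19.37 FPKM in iNSCs and 11.94, 12.49 and 24.43 FPKM in SSCs (log2 0.54, SE 0.29), and 0.99 without SSCs replicate 3 (edgeR adjusted p = 3.3e-05).

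Dhcr7, the reductase of the last step of the Kandutsch-Russell branch, was the only enzyme of this segment that fell. Dhcr7 had 12.43, 12.98 and 12.59 FPKM in iNSCs and 33.95, 34.68 and 34.25 FPKM in SSCs (log2 -1.18, SE 0.09, edgeR adjusted p = 2.83e-05). The SSC libraries were nearly level for this gene, with an SD of 0.07 on the log2 CPM scale. The lead enzymes of the segment were not called. Sqle, the squalene epoxidase, had 24.35, 25.36 and 26.55 FPKM in iNSCs and 24.56, 27.97 and 47.87 FPKM in SSCs (log2 -0.16, SE 0.26). Fdft1, the squalene synthase, had 37.13 to 40.26 FPKM in iNSCs and 45.20 to 71.19 FPKM in SSCs (log2 -0.27, SE 0.20), and it overlaps Ctsb on the other strand, a gene that rose (log2 1.42). Without knowledge of the strand setting, reads of Fdft1 and Ctsb cannot be told apart where they overlap.

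Lss and Cyp51, the cyclase that makes lanosterol and the C14 demethylase that acts on it, had their highest value in SSCs replicate 3. Lss had 6.48, 7.05 and 7.33 FPKM in iNSCs and 8.98, 12.36 and 26.01 FPKM in SSCs (log2 -0.95, SE 0.38, edgeR adjusted p = 0.0553). It was called without SSCs replicate 1 (log2 -1.25) and with library totals (log2 -1.18). Cyp51 had 36.65, 38.42 and 39.60 FPKM in iNSCs and 24.12, 27.74 and 65.85 FPKM in SSCs (log2 0.19, SE 0.38, edgeR adjusted p = 0.663). Without SSCs replicate 3 its log2 difference was 0.83 (edgeR adjusted p = 1.8e-04).

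The upstream sequences of Tm7sf2 and Ebp, the members with the largest rises, are set beside those of Lss and Cyp51, which were among the members that varied most in SSCs, with the same capitals.
Tm7sf2 (chr19:6067851-6068100, minus strand): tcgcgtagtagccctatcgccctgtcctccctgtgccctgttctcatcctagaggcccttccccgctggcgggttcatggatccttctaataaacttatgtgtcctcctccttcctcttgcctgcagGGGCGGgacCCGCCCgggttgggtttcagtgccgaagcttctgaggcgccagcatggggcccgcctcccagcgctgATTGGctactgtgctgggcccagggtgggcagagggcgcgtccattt
Ebp (chrX:8193513-8193762, minus strand): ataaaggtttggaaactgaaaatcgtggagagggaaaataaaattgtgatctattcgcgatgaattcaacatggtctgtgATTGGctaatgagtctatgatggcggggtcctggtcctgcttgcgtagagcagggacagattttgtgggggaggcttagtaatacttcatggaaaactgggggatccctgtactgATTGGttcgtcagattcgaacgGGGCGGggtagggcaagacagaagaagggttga
Lss (chr10:76531355-76531604, plus strand): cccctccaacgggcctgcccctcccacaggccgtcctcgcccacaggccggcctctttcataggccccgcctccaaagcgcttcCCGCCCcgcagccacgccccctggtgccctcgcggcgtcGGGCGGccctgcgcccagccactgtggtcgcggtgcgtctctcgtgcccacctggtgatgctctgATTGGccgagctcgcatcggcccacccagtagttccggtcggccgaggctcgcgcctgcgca
Cyp51 (chr5:4104698-4104947, minus strand): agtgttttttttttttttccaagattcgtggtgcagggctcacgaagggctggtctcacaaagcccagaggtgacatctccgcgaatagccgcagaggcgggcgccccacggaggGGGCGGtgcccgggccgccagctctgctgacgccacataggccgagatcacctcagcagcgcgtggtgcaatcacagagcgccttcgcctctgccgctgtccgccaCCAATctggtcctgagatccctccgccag
All 4 hold at least 1 NF-Y box and 1 GC box, and none holds the E-box or the sterol regulatory element as spelled here. The RefSeq start of Tm7sf2 lies 523 bases inside the gene as the deposited table bounds it. Tm7sf2 overlaps its neighbour Vps51 on the same strand, and 9.87% of its 50-base words are shared with it. Vps51 had 9.68 to 11.3 FPKM in iNSCs and 10.3 to 11.9 FPKM in SSCs, and was not called (log2 0.15).

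Among the 6 fatty acid enzymes, transcripts of the desaturases Scd1 and Scd2 rose and that of Acly fell. Scd2, a stearoyl-CoA desaturase, had 209.51, 220.93 and 207.96 FPKM in iNSCs and 67.32, 55.33 and 63.50 FPKM in SSCs (log2 2.03, SE 0.12, edgeR adjusted p = 8.68e-06). Scd1, its paralogue, had 23.16, 21.96 and 21.70 FPKM in iNSCs and 12.33, 10.61 and 9.88 FPKM in SSCs (log2 1.28, SE 0.10, edgeR adjusted p = 2.74e-05). Both were higher in 3 of 3 iNSC libraries than in any SSC library, and Scd2 was the more abundant gene in all 6. With limma on log2(FPKM + 1) Scd1 was just under the size threshold (log2 0.97). The ratio of Scd1 to Scd2 was 0.0994 to 0.111 in iNSCs and 0.156 to 0.192 in SSCs (exact permutation p = 0.1, the smallest possible).

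Both genes belong to a cluster of 4 desaturase genes on chromosome 19 (GRCm38), with Scd2 at 44293674 to 44306864 on the plus strand and Scd1 at 44394455 to 44407879 on the minus strand. The neighbours were looked at after their values were seen. Scd4 rose, at 3.44, 2.73 and 2.34 FPKM in iNSCs against 0.27, 0.16 and 0.47 FPKM in SSCs (log2 3.47, SE 0.40). Scd3 fell, at 0.26, 0.50 and 0.74 FPKM in iNSCs against 3.47, 4.29 and 2.89 FPKM in SSCs (log2 -2.56, SE 0.38). Of the summed FPKM of the 4 genes, Scd2 made up 88.6 to 89.8% in iNSCs and 78.6 to 82.7% in SSCs. Paralogues can share reads, although only 3.97% of the 50-base words of Scd2 and 4.56% of those of Scd1 occur in transcripts of other genes.

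Acly, which makes cytosolic acetyl-CoA from citrate, had 59.16, 60.39 and 62.15 FPKM in iNSCs and 129.60, 173.13 and 169.88 FPKM in SSCs (log2 -1.13, SE 0.16, edgeR adjusted p = 4.34e-04). Acaca, the acetyl-CoA carboxylase, had 2.47, 2.82 and 2.76 FPKM in iNSCs and 4.90, 6.26 and 7.40 FPKM in SSCs (log2 -0.96, SE 0.18, edgeR adjusted p = 0.0022). It was past the size threshold without SSCs replicate 1 (log2 -1.12) and with library totals (log2 -1.20), and 30.4% of its 50-base words occur elsewhere, mostly in Gm5182. Gm5182 had 3.53, 3.88 and 2.87 FPKM in iNSCs and 4.29, 9.97 and 6.95 FPKM in SSCs (log2 -0.80, edgeR adjusted p = 0.0458). That is the same direction as Acaca, whose counts may hold reads of Gm5182. By the counts as deposited, the first 2 enzymes of the route were lower in iNSCs, and the groups of each did not overlap. Fasn, the fatty acid synthase that follows, was not called, with 49.65, 55.61 and 56.91 FPKM in iNSCs and 42.97, 57.16 and 60.41 FPKM in SSCs (log2 0.26, SE 0.17). Elovl6, an elongase of long-chain fatty acids, was not called either, with 8.96, 9.38 and 9.50 FPKM in iNSCs and 6.63, 7.83 and 15.82 FPKM in SSCs (log2 0.11, SE 0.33). Of the 6 fatty acid enzymes, 2 rose, 1 fell and 1 was lower at the adjusted p alone. Among all tested genes, 25.7% rose and 27.6% fell.

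Among genes of sterol export and sensing, Abcg1 fell most of all members. Abcg1, which exports cholesterol to lipoproteins, had 0.37, 0.44 and 0.40 FPKM in iNSCs and 6.73, 7.38 and 3.20 FPKM in SSCs (log2 -3.57, SE 0.32, edgeR adjusted p = 5.52e-05). Abca1, which exports cholesterol to apolipoprotein A-I, had 12.64, 13.64 and 11.76 FPKM in iNSCs and 12.22, 20.13 and 35.85 FPKM in SSCs (log2 -0.61, SE 0.37, edgeR adjusted p = 0.17). The 2 exporters went opposite ways among the SSC libraries: replicate 3 held the highest Abca1 and the lowest Abcg1. The ratio of Abca1 to Abcg1 was 28.7 to 33.3 in iNSCs and 1.81 to 11.2 in SSCs (exact permutation p = 0.1, the smallest possible). Over the 5 pairs compared, the adjusted exact p was 0.125 for the 4 pairs whose groups did not overlap and 0.4 for Srebf1 and Srebf2.

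**Figure D3:**
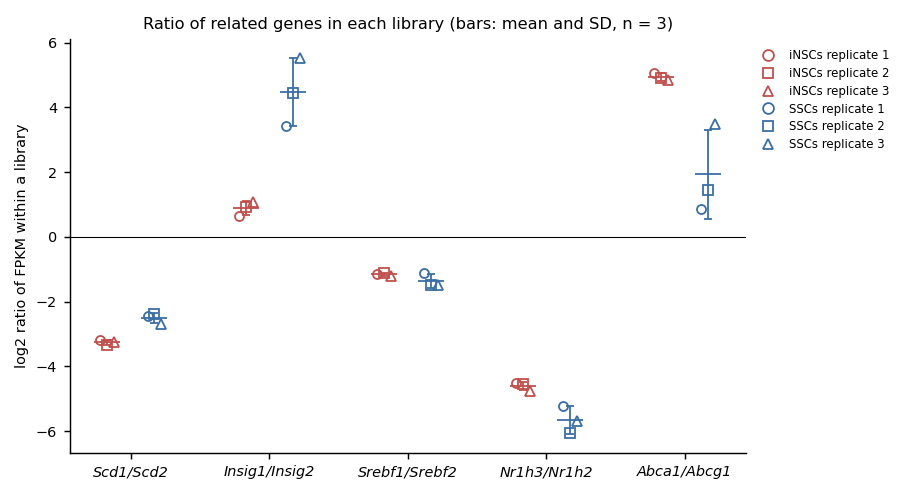
Log2 ratio of FPKM of 5 pairs of related genes within each library, with iNSCs (red) left of SSCs (blue) and bars for the mean and SD of 3 libraries. Insig1 over Insig2 and Abca1 over Abcg1 differ most, and the SSC points of both are widely spread.

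Nr1h3, the gene of LXR alpha, was low throughout and rose, with 1.57, 1.69 and 1.52 FPKM in iNSCs and 0.92, 0.51 and 0.59 FPKM in SSCs (log2 1.49, SE 0.28, edgeR adjusted p = 0.00202). These FPKM rest on 96 counts over the 3 SSC libraries, and with limma on log2(FPKM + 1) the log2 difference was 0.64, under the size threshold. Nr1h2, the gene of LXR beta, was far more abundant, at 36.22 to 41.14 FPKM in iNSCs and 30.92 to 34.82 FPKM in SSCs (log2 0.48, SE 0.10, edgeR adjusted p = 0.00328). The ratio of Nr1h3 to Nr1h2 was 0.0372 to 0.0436 in iNSCs and 0.0149 to 0.0269 in SSCs. With library totals the log2 difference of Nr1h2 was 0.22, at an adjusted p of 0.0717. Npc2, which hands cholesterol out of lysosomes, rose, with 52.88, 49.80 and 54.05 FPKM in iNSCs and 38.56, 27.98 and 21.35 FPKM in SSCs (log2 1.10, SE 0.18, edgeR adjusted p = 0.00111). Its call was lost with library totals (log2 0.83), with limma on log2(FPKM + 1) (log2 0.85) and without SSCs replicate 3 (log2 0.92). Npc1, the membrane partner that takes cholesterol from Npc2, was lower instead, at 4.59 to 4.98 FPKM in iNSCs and 7.28 to 8.97 FPKM in SSCs (log2 -0.52, SE 0.12, edgeR adjusted p = 0.00608). Stard4, a cytosolic sterol carrier, was not called, at 13.27 to 14.25 FPKM in iNSCs and 15.54 to 27.93 FPKM in SSCs (log2 -0.36, SE 0.23).

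The spread of the members among replicates differed between the groups. Their median SD on the log2 CPM scale was 0.08 in iNSCs and 0.41 in SSCs, against 0.12 and 0.29 over all tested genes. On TMM-scaled CPM, SSCs replicate 3 had the highest SSC level of 26 of the 36 members and the lowest of 6. Over all 17387 tested genes it was highest in 6475 and lowest in 6737 on that scale. In FPKM, Acly, Dhcr7 and Scd2 were not highest in SSCs replicate 3. In 14 members it was at least 1.5 times above both other SSC libraries on TMM-scaled CPM, which held for 5.62% of all tested genes. This rule was set after the values had been seen, and 1 library against 2 gives no test. The members, too, were chosen with earlier results of these data known. The 14 were Insig1, Hmgcs1, Pmvk, Mvd, Idi1, Fdft1, Sqle, Lss, Cyp51, Msmo1, Nsdhl, Elovl6, Stard4 and Abca1. Their summed FPKM was 380, 451 and 819 in SSCs replicates 1, 2 and 3. Of the 18 sterol synthesis enzymes, 10 were among them, against 1 of the 6 fatty acid enzymes. Abcg1 alone of the members was 1.5 times below both others in that library, as were 13.1% of all tested genes.

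The members that stood high in SSCs replicate 3 did so by different amounts. Cyp51 was 2.54 times the mean of SSCs replicates 1 and 2 in FPKM, Hmgcs1 2.50 times, Lss 2.44 times and Abca1 2.22 times. At the other end, Dhcr7 was at 0.998 times, Scd2 at 1.04 times and Scap at 0.928 times. Ebp (0.561 times), Npc2 (0.642 times) and Insig2 (0.637 times) were lower there than in the mean of the others. That library also had the lowest sum of fibroblast markers, as given above, and its sum of 6 germ cell markers was 718 FPKM against 651 and 696 FPKM. Single markers of both lists went either way there. The part of cell composition in this spread was not tested. Without SSCs replicate 3, 11 members were called higher in iNSCs and 4 lower, and 9 of the 11 were among the 10 called with it. Hsd17b7 and Sc5d were gained and Npc2 was lost. With no size threshold the counts were 18 higher and 9 lower without it, against 13 and 9 with it.

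**Figure D4:**
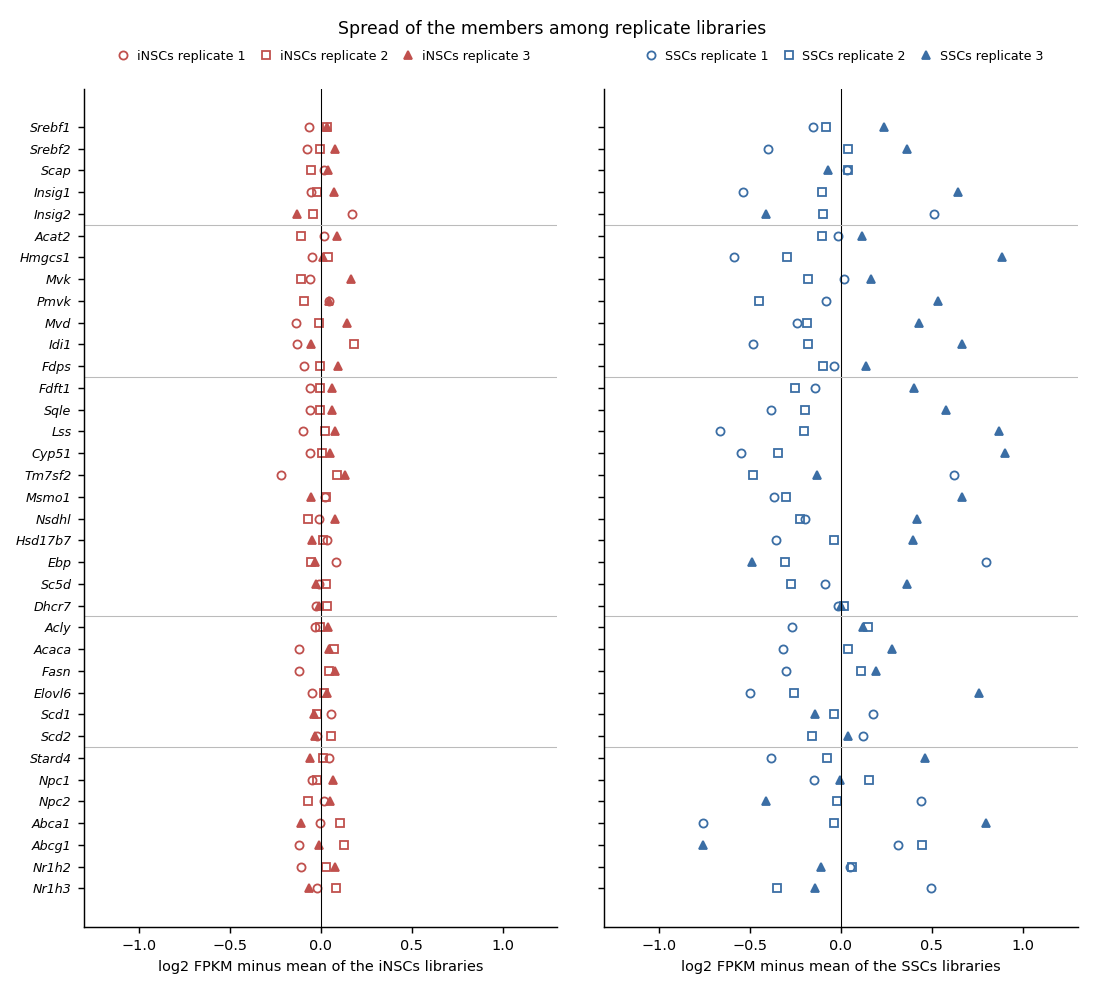
Log2 FPKM of each member in each library minus the mean of its own group, with iNSCs on the left and SSCs on the right, and replicate 3 as filled triangles. iNSC points stay near 0, and SSCs replicate 3 lies to the right for most sterol synthesis enzymes but not for Dhcr7, Ebp or Tm7sf2. Among other members, SSCs replicate 3 lies to the left for Scd1 and Abcg1 and near 0 for Scd2.

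Markers of other cell types were measured beside these genes, with the shares of all tested genes given above as the background. Of the 8 fibroblast markers, 4 rose and 1 fell, with sums of 114 to 162 FPKM in iNSCs and the SSC sums given above. Of 7 epithelial markers, 6 rose, and their sum was 2810 to 3350 FPKM in iNSCs against 152 to 251 FPKM in SSCs. Of 7 Sertoli cell markers 4 rose and 1 fell, and their sum was 87.1 to 99.8 FPKM in iNSCs and 6.92 to 24.3 FPKM in SSCs. Markers of Leydig cells, which use cholesterol for steroids, summed to 47.8 to 54.4 FPKM in iNSCs and 13.2 to 43.0 FPKM in SSCs over 6 genes, 3 of which rose. Star was the largest part, at 27.36 to 33.99 FPKM in iNSCs and 9.61 to 30.20 FPKM in SSCs, so its groups overlapped. The groups of Cyp11a1, Hsd3b1 and Nr5a1 did not overlap, with iNSCs higher. Cyp17a1 was at 0.12 FPKM or less and Insl3 at 0.86 FPKM or less in every library. The fat cell markers Plin1, Cidec and Lep were at 0.120 FPKM or less in every library. Of the 7 fat cell markers, 2 (Fabp4 and Pparg) rose and 1 (Adipoq) fell, and their sum was 3.36 to 5.22 FPKM in iNSCs and 0.910 to 1.72 FPKM in SSCs. Macrophage marker sums overlapped, at 19.9 to 22.9 FPKM in iNSCs and 10.8 to 39.4 FPKM in SSCs, with 1 of 6 (Csf1r) higher and C1qa at 0 counts in iNSCs. Whether these cell types were present, and their part in the lipid gene differences, was not tested.

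Further genes of the same pathways were looked at as lists. Of 56 such genes 55 were tested, and 18 rose and 11 fell (median log2 0.56), against the 25.7% and 27.6% of all tested genes given above. Among 14 other isoprenoid and sterol genes, 2 rose and 2 fell. Lbr, a nuclear envelope protein with the same C14 reductase activity as Tm7sf2, fell to 7.29, 6.93 and 7.20 FPKM in iNSCs, against 35.20, 44.30 and 54.01 FPKM in SSCs (log2 -2.40, SE 0.19). So the 2 genes of this step moved in opposite directions, though Lbr also holds heterochromatin at the nuclear envelope. Erlin1, a cholesterol-binding protein of the endoplasmic reticulum that restrains SREBP activation, fell to 4.82, 3.83 and 4.30 FPKM in iNSCs, against 17.10, 16.64 and 9.86 FPKM in SSCs (log2 -1.49, SE 0.21). Mbtps2, the site-2 protease that releases SREBP from the membrane, rose with a log2 difference of 1.75 (SE 0.12). Pgrmc1, a haem-binding partner of cytochrome P450 enzymes, rose with a log2 difference of 2.17 (SE 0.31).

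Of 29 tested other fatty acid genes, 11 rose and 8 fell. Elovl7, an elongase, had 9.70, 9.10 and 10.60 FPKM in iNSCs and 0.48, 0.39 and 0.13 FPKM in SSCs (log2 5.14, SE 0.36). Elovl4, which makes very long chains, fell to 0.30, 0.15 and 0.25 FPKM in iNSCs, against 4.21, 3.57 and 3.41 FPKM in SSCs (log2 -3.74, SE 0.29). Different members of the elongase family thus changed in opposite directions. Mid1ip1, which promotes the polymerisation of acetyl-CoA carboxylase, rose, with 101.69, 108.82 and 113.21 FPKM in iNSCs and 8.88, 5.02 and 7.91 FPKM in SSCs (log2 4.15, SE 0.22). Acsl5, a long-chain acyl-CoA synthetase, rose with a log2 difference of 4.15 (SE 0.29). The desaturase cluster Fads1, Fads2 and Fads3, also on chromosome 19 and singled out after its values were seen, rose throughout, with log2 differences of 2.36, 1.68 and 3.26. Fads1 had 52.25 to 56.19 FPKM in iNSCs and 11.86 to 13.75 FPKM in SSCs. Thrsp was too low to be tested.

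Of 12 other genes of uptake, storage and LXR response, 5 rose and 1 (Mylip, an LXR target that degrades lipoprotein receptors) fell. Cyp7b1, an oxysterol hydroxylase, had 9.25, 9.72 and 10.54 FPKM in iNSCs and 0.12, 0.31 and 0.39 FPKM in SSCs (log2 5.40, SE 0.37). Plin2, the coat protein of lipid droplets, had 83.11, 80.31 and 84.59 FPKM in iNSCs and 17.76, 11.54 and 11.15 FPKM in SSCs (log2 2.88, SE 0.18). Both genes stood apart between the groups in every library. Vldlr, a lipoprotein receptor, rose with a log2 difference of 2.89 (SE 0.21), and Lipa, the lysosomal lipase that frees cholesterol from its esters, with one of 1.23 (SE 0.20). Lipa was below the size threshold with library totals (log2 0.97) and with limma on log2(FPKM + 1) (log2 0.81).

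**Figure D5:**
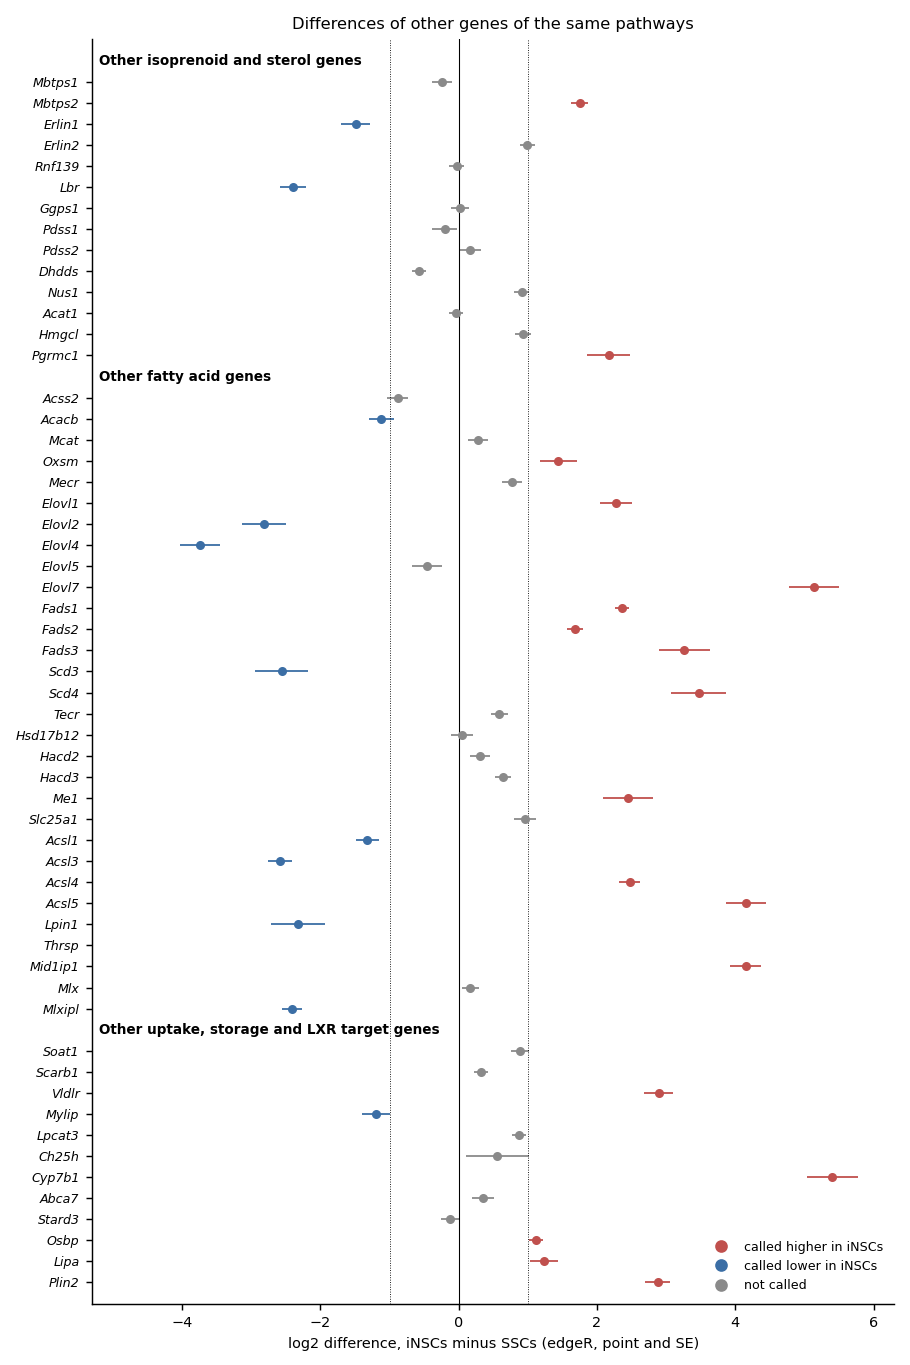
Log2 difference (iNSCs minus SSCs) with its SE for the other genes of the same pathways, in 3 groups. Thrsp has no point because it was not tested. Cyp7b1 and Elovl7 lie farthest to the right and Elovl4 farthest to the left.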

How the data were processed

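The authors deposited raw counts and FPKM of every library in 1 table. Recomputing FPKM from the deposited counts, exonic lengths and library totals gave the deposited FPKM within 0.0051 for 100% of values. HISAT2, DESeq2 and mm9 are named, without versions, per the submitters' processing notes. No source used here names the counting tool or its strand setting. Gene coordinates are on GRCm38: of 55141 identifiers found in GENCODE M21, 54821 had identical positions, all 36 members among them. Upstream sequences are from a table made from RefSeq (GRCm38.p6), in which 28 of the members were matched. Upstream sequences of Sqle, Stard4, Fdps, Abcg1, Scd1, Scd2, Npc1 and Fdft1 were not used here.

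Counts were tested with edgeR 4.0.16 under R 4.3.3 (TMM scaling, quasi-likelihood test, two-sided, Benjamini-Hochberg over 17387 genes). The default filter asked for about 10 counts in at least 3 libraries, the size of a group, and for 15 in total. The SE is the log2 difference divided by the square root of the F statistic. The procedure was tested on simulated data. The simulation gave both groups the same spread and changed few genes, unlike these data, so it does not check those conditions. DESeq2 1.42.0 and limma 3.58.1 served as alternatives, with other scalings, no filter, and each library left out. Pair ratios used log2(FPKM + 0.01). All 36 members are described, and of each further pathway list the 4 called genes with the largest difference. Shared 50-base words were counted in GENCODE M21 transcripts. At these depths 3 counts are 0.149 to 0.166 CPM. Members and lists were chosen with earlier results of these data known. A gene of the further sterol list is not reported here and is left out of its counts.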

Additional observations from a re-analysis of the deposited data

How the results depend on the processing

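The 10 higher and 4 lower members were called again by DESeq2, without the filter on low counts, and with the replicate block. Library totals in place of TMM moved all log2 differences by a median of -0.25 and gave 7 higher and 7 lower members (Acaca, Lss and Srebf2 gained, Mvk, Npc2 and Pmvk lost). limma on log2(FPKM + 1), which changes the scaling and the test and adds a pseudocount, gave 5 higher members (Mvk, Npc2, Nr1h3, Pmvk and Scd1 lost), and 2746 higher genes against 4470. Which of these changes caused the drop was not tested. With no size threshold 9 members were lower. Leaving out 1 library gave 9 to 11 higher and 4 to 6 lower members.

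Of 396 log2 differences of members under alternatives, 363 kept direction and call, 11 lost the call and 8 gained it. The other 14 turned direction, all in members that were not called. A call here needs both the adjusted p and the size, so changes at the adjusted p alone count as kept. With no size threshold, the alternatives gave 12 to 18 higher and 8 to 14 lower members, against 13 and 9 in the main test. With library totals Hmgcs1 was at -0.12, Fdps -0.19, Cyp51 -0.04 and Elovl6 -0.12. Under limma Fdps was at -0.19 and Elovl6 at -0.02. Without SSCs replicate 1 Hmgcs1 was at -0.17, Cyp51 -0.08 and Elovl6 -0.13, and without SSCs replicate 2 they were at -0.08, -0.01 and -0.04. With 1 library left out Hmgcs1 ranged up to 0.73, Cyp51 to 0.83 and Elovl6 to 0.63, each without SSCs replicate 3. Mvd ranged between -0.32 without SSCs replicate 1 and 0.09 without SSCs replicate 3, and Sqle between -0.36 and 0.22. The cause was not tested beyond the SSC values given above. All 5 pair ratios kept their direction with a pseudocount of 1 FPKM and without each library, although the difference for Abca1 to Abcg1 was 1.54 with that pseudocount, against 3.01, and that for Nr1h3 to Nr1h2 0.42, against 1.05.

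The labels give same-numbered libraries only a shared number. Their deviations from the group means correlated at 0.091, 0.05 and -0.015. Such correlations cannot show whether they share a culture, animal or batch. With the replicate block 4510 genes were higher and 4661 lower, against 4470 and 4797, and the pair ratios kept their differences (Insig1 to Insig2 -3.58, exact p = 0.25, the smallest that 3 pairs allow). Depth limits Nr1h3 and Tm7sf2 in SSCs, with 96 and 147 counts over 3 libraries.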
